A study of Mus musculus with 14 samples.

Results

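The messages of 10 genes that make, break down, sense or answer cyclic AMP (cAMP) were followed in mouse regulatory T cells (Tregs), the CD4+ T cells that carry the transcription factor FOXP3 and restrain immune responses. The genes were taken by name, with earlier results of these data known. They were the adenylyl cyclase Adcy7, the phosphodiesterases Pde3b, Pde4a, Pde4b, Pde4d and Pde7a, the receptors Adora2a, Ptger4 and Vipr1, and the transcription factor Crem. All 10 were found among the 48363 genes with values, and all 10 were also among the 16241 genes tested, with no member lost to the filter on low values. RNA-seq had been done on 5 libraries of cKO Tregs (Foxp3-Cre with both miR-15/16 loci fl/fl), 4 libraries of WT Tregs (Foxp3-Cre with both loci wt/wt), 2 libraries of CD25lo and 3 libraries of CD25hi Tregs. The CD25lo and CD25hi cells were gated by surface CD25, the IL-2 receptor α chain, from mice of the WT genotype. The controls thus carry the same Cre, joined to a yellow fluorescent protein (YFP) and driven by the Foxp3 gene itself, so that deletion follows FOXP3 expression. Cells were sorted as CD4+ FOXP3-YFP+ from spleen and lymph nodes, received no treatment that the labels name, and the libraries are described as biological replicates. Mice in the study were 8 to 11 or 20 weeks old, and which of these ages the RNA-seq used was not given in the sources used here.

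cAMP is a second messenger formed from ATP by adenylyl cyclases when receptors coupled to the stimulatory G protein Gs are engaged, and it is cleared by phosphodiesterases. In T cells a rise in cAMP activates protein kinase A (PKA) and dampens signaling from the antigen receptor. Tregs are known for a high content of cAMP, which they can hand to the T cells they suppress, and FOXP3 is known to repress Pde3b.

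The deposited values are reads per gene divided by a DESeq2 size factor, here called normalized counts, and a library held 30055573 to 35226685 reads in genes (median 31942231). Foxp3 was at 17803.6 to 19651.6 normalized counts in cKO, 18053.2 to 21324.1 in WT, 14545.5 to 16297.6 in CD25lo and 21788.4 to 24370.2 in CD25hi libraries, so the labelled cell type was borne out in each. The groups also differed in ways that touch the results. By Xist, a transcript of the inactive X chromosome, all 5 cKO libraries and WT replicate 3 were female, and the other 8 libraries were male. The mean log2 level of 22 immediate early genes, which respond within minutes to stimulation and to handling of cells, was 12.64, 12.68, 12.89, 13.40 and 13.56 in the cKO libraries and 13.57, 13.32, 13.51 and 11.84 in the WT libraries. It was 12.19 and 11.62 in CD25lo and 11.92, 11.64 and 11.74 in CD25hi libraries, so WT replicate 4 stood apart from the other WT libraries. The summed level of 5 B cell markers ranged from 977.5 to 1291.9 normalized counts in cKO and from 536.4 to 952.8 in WT libraries, without overlap. Most of it came from Cd79b and Cd22, and the defining marker Ms4a1 did not exceed 9.4 in cKO or 45.7 in WT libraries. The 10 myeloid markers summed to 1281.5 to 4698.9 in cKO and 1668.9 to 6924.3 in WT libraries. Among them Csf1r was at 127.5 to 2126.4 in cKO, highest in replicate 4, and at 552.9 to 3159.2 in WT libraries. Cst3 was at 907.7 to 1361.0 in cKO and 765.6 to 1555.0 in WT libraries. S100a8 and S100a9 were at 0 in all cKO libraries and did not exceed 40.1 in WT libraries. The 6 CD8 T and NK cell markers summed to 842.0 and 854.9 in CD25lo and to 450.2 to 797.3 in CD25hi libraries, and the 6 dendritic cell markers to 0 and 52.7 in CD25lo and 82.5 to 142.7 in CD25hi libraries, with no overlap in either list. The largest CD8 T and NK part was Cd8b1, at 394.6 and 531.9 in CD25lo and 266.9 to 575.0 in CD25hi libraries. Cd8a did not exceed 25.5 and Ncr1 did not exceed 12.2 in these libraries. Klrd1 was at 128.2 and 31.3 in CD25lo and at most 2.8 in CD25hi libraries, and Klrb1c and Eomes overlapped. The part of these differences in the results was not tested beyond the alternatives named beside them.

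The miRNAs deleted in cKO Tregs share 1 seed, bases 2 to 8, and are shown here with the seed in capitals, since the same letters decide which of the 10 messages could pair with them (RefSeq, GRCm38.p6).
miR-15a-5p: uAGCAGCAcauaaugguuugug
miR-15b-5p: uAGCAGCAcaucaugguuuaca
miR-16-5p: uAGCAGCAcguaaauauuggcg

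The complement of this seed was searched in the longest annotated 3′ UTR of each gene (GENCODE M21, GRCm38, the strand of the message only) as TGCTGCT, as GCTGCTA, or as TGCTGCTA, which holds both. A match was found in 5 of the 10 members, compared with 27.8% of the 12731 tested genes that had an annotated 3′ UTR. This comparison was not matched for the length of the 3′ UTR, which ran from 848 bases in Adora2a to 4528 in Pde7a. An excess of matches was not tested. The matches of Adcy7 and Pde3b, the enzymes of synthesis and breakdown that were higher in cKO Tregs, and of Pde4b and Pde7a, which did not pass the test there, are shown with 11 bases on each side and the match in capitals.
Adcy7, chr8:88328167-88328173, plus strand: ctagcatgggtTGCTGCTtgccttcctcc
Pde3b, chr7:114536506-114536512, plus strand: gtgtgtcataaTGCTGCTttgctgggtag
Pde4b, chr4:102606245-102606251, plus strand: tttcaatttaaTGCTGCTgtctttgtctt
Pde7a, chr3:19227018-19227024, minus strand: cgcctcccaccTGCTGCTctgctctgtgc
Pde7a, chr3:19224978-19224984, minus strand: ctgtggagataGCTGCTActatcatatct
Crem held 2 further matches. Pde4a, Pde4d, Adora2a, Ptger4 and Vipr1 held none, so the receptors as a group had no match in this window. None of the matches was the longer TGCTGCTA. A match is a run of letters and says nothing of binding.

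Per length, Adcy7 was the most abundant of the 10 messages in every group. Its level was 2029.8 ± 151.7 normalized counts per kilobase of exon in cKO (SD, n = 5) and 1671 ± 152.6 in WT Tregs (SD, n = 4), and 2293 ± 148.7 in CD25lo (SD, n = 2) and 1586 ± 87.4 in CD25hi Tregs (SD, n = 3). Adora2a, at 1218 per kilobase in cKO and 819 in WT Tregs, and Ptger4, at 903 and 898, were the most abundant of the 3 receptors in the bulk Tregs. Among the phosphodiesterases Pde4b led, at 456.5 per kilobase in cKO and 422 in WT Tregs, and Pde4a was lowest, at 19.0 in cKO and 25.9 in WT Tregs. Levels between genes are compared per kilobase of exon in this paragraph, and normalized counts are given from here on.

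By group mean, Adcy7 and Pde3b shared the order CD25lo, cKO, WT and CD25hi, from high to low. For Adcy7 all CD25lo libraries lay above all cKO libraries and the other neighbours overlapped, and for Pde3b only WT and CD25hi overlapped. Adora2a, Ptger4 and Crem shared the order cKO, WT, CD25hi and CD25lo. In it cKO lay apart from WT for Adora2a, and CD25hi from CD25lo for Ptger4, while no neighbours of Crem lay apart. Vipr1 ran CD25lo, WT, cKO and CD25hi, with CD25lo alone apart from its neighbour. Of the PDE4 genes, Pde4b ran cKO, CD25lo, WT and CD25hi with CD25hi apart from WT, and Pde4d ran cKO, WT, CD25lo and CD25hi with CD25hi apart from CD25lo. Pde4a and Pde7a had no neighbours apart. The WT mean lay above those of both CD25-sorted groups, which have the same genotype, for Adora2a, Ptger4, Crem, Pde4a and Pde4d. The lowest WT library was WT replicate 4 for Adora2a, Ptger4, Crem and Pde4d, at 2223.0, 4560.0, 323.7 and 2097.6. For Pde4a it was WT replicate 2, at 104.8, and WT replicate 4 was at 237.4. The immediate early level of WT replicate 4, 11.84, lay among those of the CD25-sorted libraries. These orders are descriptions, and levels of bulk against CD25-sorted libraries, and the part of immediate early levels in them, were not tested.

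**Figure D1:**
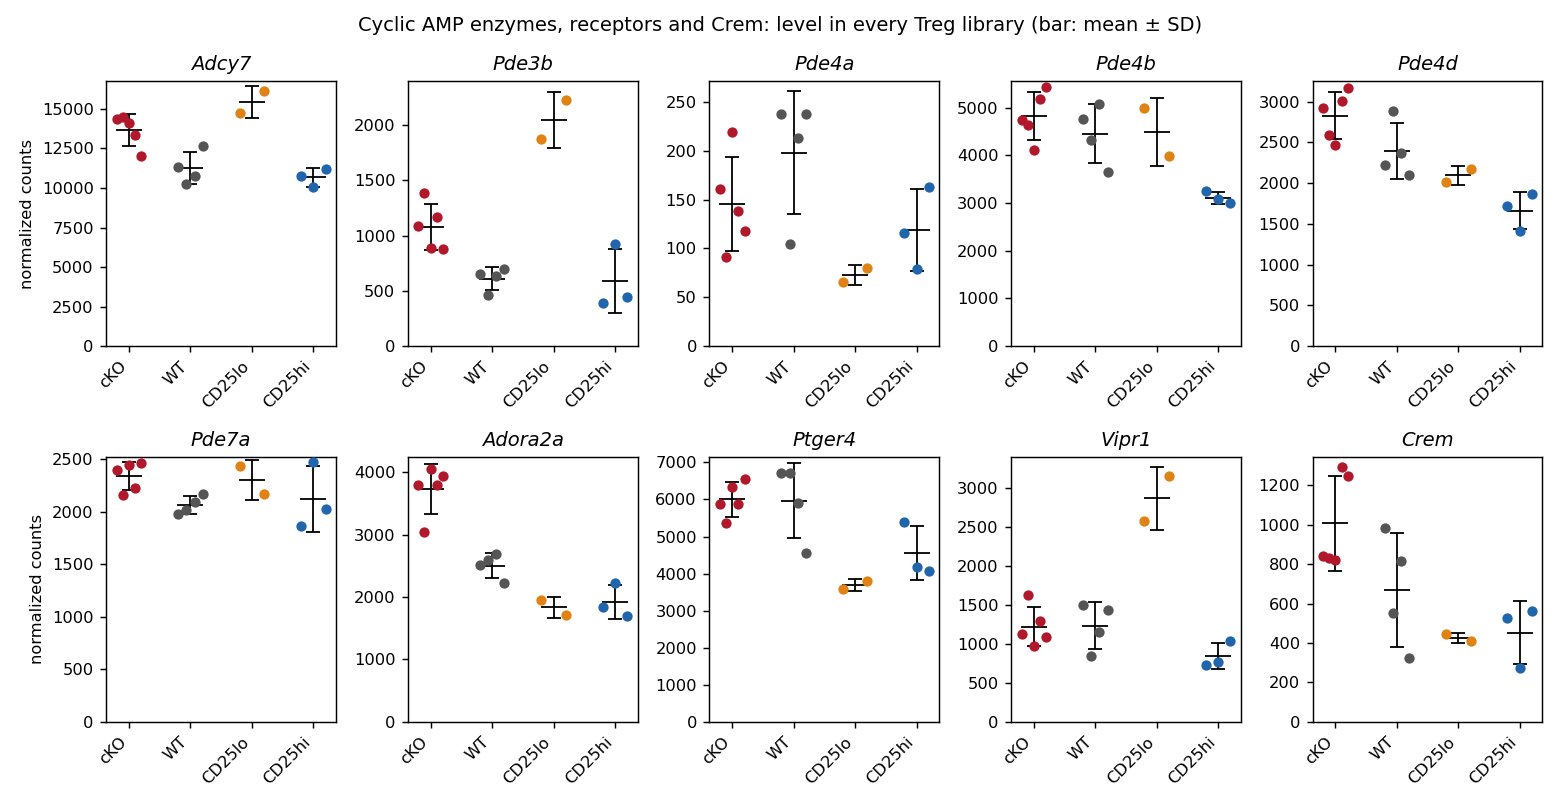
Normalized counts (vertical axes, each from 0) of the 10 genes in every library, with 1 panel per gene and the groups cKO (n = 5), WT (n = 4), CD25lo (n = 2) and CD25hi (n = 3) on the horizontal axis. Points are libraries and black bars the mean ± SD; Pde3b and Adora2a lie higher in all cKO than in all WT libraries, and Vipr1 lies at 2585.0 and 3156.0 in CD25lo Tregs, above all other libraries.

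The members were chosen with earlier results of these data known, so their counts and medians beside all genes are descriptions. Between cKO and WT Tregs, whose labels differ by the miR-15/16 deletion, 3 of the 10 members passed the test upward: Adora2a, Adcy7 and Pde3b. Of all 16241 genes tested 2.04% did. None of the 10 passed downward with limma (0 of 10), where 1.48% of all genes did. The 5 members with an unadjusted p under 0.05, as 2619 of the 16241 genes had, were all higher. DESeq2 and edgeR called none lower. The median log2 fold change (log2FC) of the 10 was 0.21, beside 0.05 over all genes tested. All cKO libraries lay above all WT libraries for 2 members, Pde3b and Adora2a, which 4.92% of genes did, and below them for 0 members, which 3.62% of genes did. Between CD25lo and CD25hi Tregs, 3 of the 10 passed upward: Vipr1, Pde3b and Adcy7, against a background of 0.61% of genes, and 0 of 10 passed downward (limma), against 1.01%. Here too the 5 members with an unadjusted p under 0.05, as 2185 of the 16241 genes had, were all higher. DESeq2 and edgeR called none lower. The median over the 10 was 0.23, beside 0 over all genes tested. With so few libraries the CD25lo values lay above all CD25hi values for 12.9% of genes and below them for 11.6%. They did so for 5 and for 1 of the 10 members, so the count below lay near that background. The tests used limma on log2(normalized count + 1), fitted to all 14 libraries, with Benjamini-Hochberg adjustment over all genes tested, and fold changes are on that scale. In RNA from bulk cells, a changed share of cells with a message and a changed level per cell cannot be told apart. Il2ra, the message of CD25, was at 13358.7 to 17141.4 normalized counts in cKO and 24205.9 to 29151.2 in WT libraries. It was at 14681.7 and 15026.5 in CD25lo and 39582.7 to 41188.2 in CD25hi libraries. Whether a changed share of CD25lo cells in cKO Tregs had a part in the rises called in both comparisons was not tested.

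**Figure D2:**
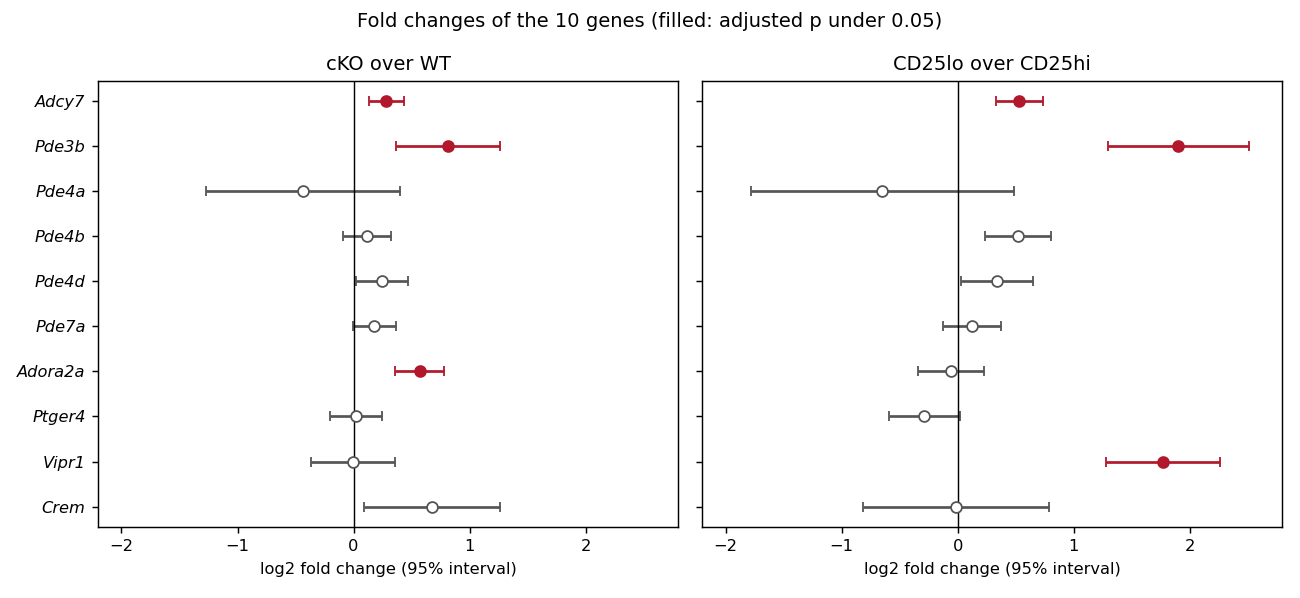
Log2FCs (horizontal axes) of the 10 genes with 95% intervals from limma, cKO over WT Tregs on the left (n = 5 and 4 libraries) and CD25lo over CD25hi Tregs on the right (n = 2 and 3). Filled red points passed an adjusted p of 0.05; Adcy7 and Pde3b are filled in both panels, Adora2a in the left and Vipr1 in the right.

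The synthetic enzyme Adcy7 (chromosome 8, 88272403 to 88329962, plus strand, GRCm38), the adenylyl cyclase isoform best known from blood cells, was higher both in cKO and in CD25lo Tregs. It was at 14365.3, 14465.5, 14117.1, 13379.6 and 12005.0 normalized counts in the cKO libraries, against 11295.6, 10281.5, 10772.5 and 12663.5 in the WT libraries. Of the cKO libraries 4 lay above the highest WT library, and replicate 5 lay below it. The log2FC was 0.28 with a standard error (SE) of 0.07 (adjusted p = 0.0339 from limma), a rise of 1.22-fold. In CD25lo libraries it was at 14733.7 and 16149.2, against 10757.2, 10051.3 and 11219.7 in CD25hi libraries, and these groups did not overlap. The log2FC there was 0.53 (SE 0.10, adjusted p = 0.0083). The call in cKO Tregs was lost without cKO replicates 1, 2, 3 or 4 (adjusted p = 0.0938, 0.0793, 0.0902 and 0.0538 from limma) and without WT replicates 1, 2 or 3 (adjusted p = 0.0688, 0.106 and 0.0929), and that in CD25lo Tregs without CD25lo replicate 2 (adjusted p = 0.125). When the sex of each library was fitted as a term, the log2FC in cKO Tregs was 0.34 (SE 0.12, adjusted p = 0.512, within 0.0036 to 0.512 over 13 alternatives other than leaving out a library). The female WT replicate 3, at 10772.5, lay below all 5 cKO libraries.

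Of the enzymes that break cAMP down, Pde3b (chromosome 7, 114415281 to 114539251, plus strand), which is also inhibited by cyclic GMP, changed in both comparisons. Its level was 1084.1, 1382.9, 884.7, 1168.2 and 878.7 normalized counts in the cKO libraries, against 652.9, 461.9, 636.4 and 694.7 in the WT libraries. The groups did not overlap, and the lowest cKO library was 878.7 where the highest WT library was 694.7. The log2FC was 0.81 (SE 0.21, 95% interval 0.37 to 1.26, adjusted p = 0.0386 from limma). In CD25lo libraries Pde3b was at 1871.3 and 2226.4, against 391.2, 922.8 and 448.4 in CD25hi libraries. CD25lo Tregs thus held the highest levels of all 14 libraries, and CD25hi replicate 2 lay well above the other CD25hi libraries. The log2FC was 1.90 (SE 0.29, adjusted p = 0.0019), and it was 2.28 without CD25hi replicate 2.

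Foxp3, given above, was lower in CD25lo than in CD25hi Tregs (log2FC -0.57, SE 0.08, adjusted p = 0.0016 from limma). Between cKO and WT Tregs its log2FC was -0.07 (SE 0.06, adjusted p = 0.627), and the groups overlapped. The Pde3b call in CD25lo Tregs remained in all 5 fits that left out a CD25-sorted library, with adjusted p of 1.0e-04 to 0.0441. In cKO Tregs the Pde3b call was lost without cKO replicates 1, 2, 3 or 4 (adjusted p = 0.0847, 0.0995, 0.0516 and 0.0838) and without WT replicates 1, 2 or 3 (adjusted p = 0.0629, 0.118 and 0.0702). With the sex term its log2FC was 0.74 (SE 0.36, adjusted p = 0.792, within 0.0072 to 0.792 over 13 alternatives), and the female WT replicate 3, at 636.4, lay below all cKO libraries.

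The PDE4 enzymes, which act on cAMP alone, and Pde7a, a cAMP-specific enzyme abundant in T cells, did not pass the test in either comparison. Pde4b (chromosome 4, 102087543 to 102607259, plus strand), known in human T cells to be drawn to the antigen receptor on stimulation, was at 4731.0, 4643.6, 4119.1, 5175.0 and 5434.5 normalized counts in cKO and 4770.0, 4319.0, 5070.6 and 3656.6 in WT libraries. The groups overlapped, with a log2FC of 0.12 (95% interval -0.09 to 0.33, adjusted p = 0.618 from limma). In CD25lo libraries Pde4b was at 4991.8 and 3989.6, above all CD25hi libraries at 3252.7, 3077.1 and 3001.9. The log2FC of 0.52 (SE 0.14) had an adjusted p of 0.0604 from limma, whereas DESeq2 gave 0.0110 and a fit with the immediate early level as a term 0.0080, within 0.0080 to 0.138 over 12 alternatives.

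Pde4d (chromosome 13, 108449948 to 109953461, plus strand) was at 2918.5, 2586.4, 2468.3, 3003.6 and 3164.5 normalized counts in cKO and 2220.0, 2886.2, 2372.7 and 2097.6 in WT libraries. In cKO Tregs 3 libraries exceeded the highest WT library, and the log2FC was 0.24 (95% interval 0.02 to 0.47, adjusted p = 0.262 from limma). CD25lo libraries had 2014.9 and 2172.9, against 1713.1, 1411.7 and 1866.3 in CD25hi libraries (log2FC 0.34, adjusted p = 0.307). Pde7a (chromosome 3, 19223108 to 19311322, minus strand) was the steadiest of the 5 between bulk libraries, at 2162.3 to 2460.4 in cKO (median 2392.5) and 1976.3 to 2168.5 in WT libraries (median 2050.9). Its groups met only at 2162.3 in cKO and 2168.5 in WT, and the log2FC of 0.18 had a 95% interval of -0.005 to 0.36 (adjusted p = 0.326). In CD25lo libraries Pde7a was at 2432.3 and 2165.9, between the lowest and the highest of the CD25hi libraries at 1858.5, 2470.0 and 2023.8.

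Pde4a (chromosome 9, 21165714 to 21213248, plus strand) was scarce and uneven. It was at 160.8, 91.1, 219.0, 138.0 and 118.2 normalized counts in cKO libraries, against 237.4, 104.8, 212.5 and 237.4 in WT libraries. In CD25lo libraries it was at 65.5 and 79.7, against 115.4, 78.4 and 162.4 in CD25hi libraries. In both comparisons the groups overlapped, and the log2FCs of -0.43 in cKO (95% interval -1.27 to 0.40) and -0.65 in CD25lo Tregs (95% interval -1.78 to 0.49) left changes of either sign within their intervals (adjusted p = 0.656 and 0.650 from limma).

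Read as shares of the summed level per kilobase of the 12 cAMP phosphodiesterases that were tested, of 16 listed, the 5 members made up most of these messages. They held 69.8% ± 2.86 in cKO (SD, n = 5) and 63.6% ± 3.85 in WT Tregs (SD, n = 4), and 66.7% in both CD25lo libraries and 57.1% to 62.2% in CD25hi libraries. The share of Pde3b was 5.95% to 9.26% in cKO and 3.16% to 5.02% in WT libraries, without overlap, and 11.7% and 14.9% in CD25lo against 3.27% to 7.50% in CD25hi libraries. Pde4b held the largest mean share in the bulk groups, 28.2% in cKO and 27.4% in WT Tregs. Pde1b, a calmodulin-dependent enzyme that is not among the 10, was the main other one, at 17.1% in cKO, 19.8% in WT, 21.2% in CD25lo and 26.1% in CD25hi Tregs. The summed level itself was 1619 ± 58.0 normalized counts per kilobase in cKO and 1542 ± 44.0 in WT Tregs, and 1695 ± 79.7 in CD25lo and 1330.2 ± 19.4 in CD25hi Tregs. These shares were not tested, and they take the union of annotated exons as each gene's length, which isoforms with fewer exons would not fill.

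**Figure D3:**
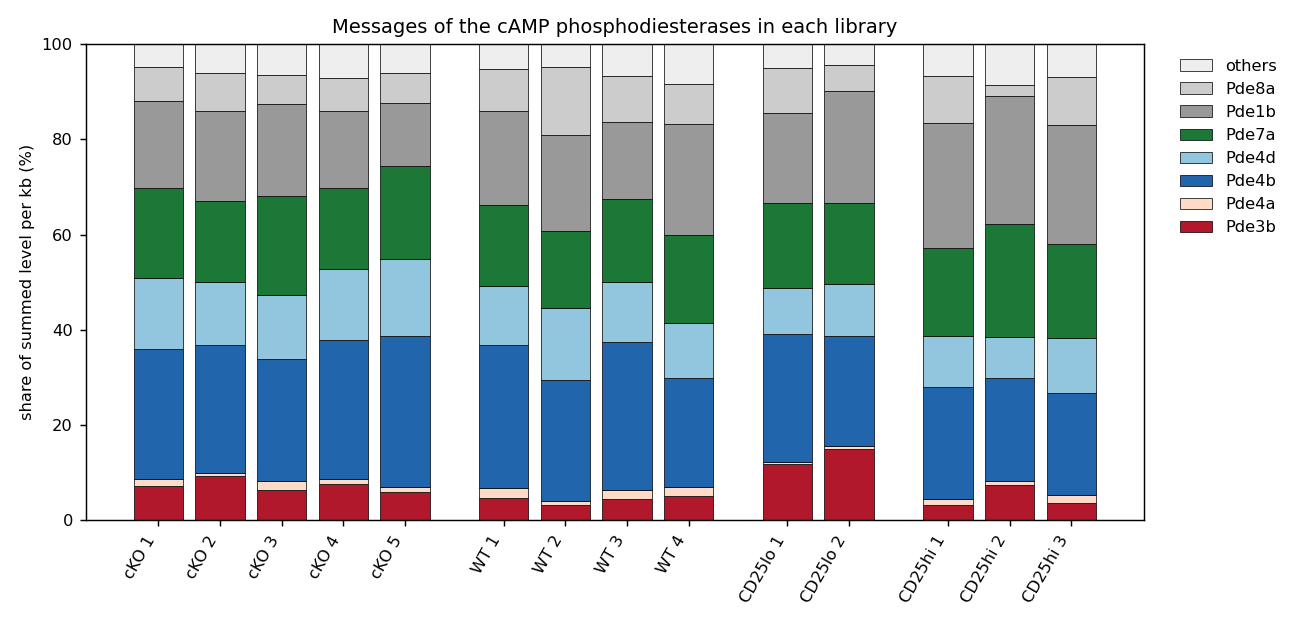
Share of each cAMP phosphodiesterase in the summed level per kilobase of exon (vertical axis, percent) in every library (horizontal axis), ordered cKO, WT, CD25lo and CD25hi. Coloured segments are the 5 members and grey segments other genes; the Pde3b segment at the base is 11.7% and 14.9% in CD25lo Tregs and at most 9.26% elsewhere.

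Of the receptors, Adora2a (chromosome 10, 75316877 to 75334784, plus strand), the Gs-coupled adenosine receptor of T cells, was higher in cKO Tregs. It was at 3796.4, 3038.4, 4057.8, 3806.7 and 3941.7 normalized counts in the cKO libraries, against 2518.8, 2600.1, 2687.8 and 2223.0 in the WT libraries. Every cKO library lay above every WT library, with cKO replicate 2 nearest to them. The log2FC was 0.57 (SE 0.10, 95% interval 0.36 to 0.78, adjusted p = 0.0034 from limma), or 1.48-fold. It remained called in all 9 fits that left out a bulk library (adjusted p 0.0011 to 0.0143) and in 12 of the 13 other alternatives. The exception was the sex term, with a log2FC of 0.46 (SE 0.17, adjusted p = 0.527). The female WT replicate 3 was the highest WT library, at 2687.8, and below all cKO libraries. Between CD25lo and CD25hi Tregs Adora2a did not pass the test. It was at 1960.4 and 1720.8 in CD25lo and 1837.0, 2230.7 and 1694.2 in CD25hi libraries, groups that overlapped (log2FC -0.05, 95% interval -0.34 to 0.23, adjusted p = 0.914).

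Vipr1 (chromosome 9, 121642716 to 121672954, plus strand) encodes VPAC1, a Gs-coupled receptor for vasoactive intestinal peptide. CD25lo libraries held 2585.0 and 3156.0 normalized counts of it, against 733.7, 767.0 and 1038.0 in CD25hi libraries, without overlap. The log2FC was 1.77 (SE 0.23, 95% interval 1.28 to 2.26, adjusted p = 6.6e-04 from limma), or 3.41-fold, and it remained called under all 12 alternatives and in all 5 fits that left out a CD25-sorted library (adjusted p up to 0.0202). In cKO libraries Vipr1 was at 1125.8, 1623.8, 973.3, 1293.3 and 1091.1, against 1499.4, 850.7, 1158.9 and 1437.8 in WT libraries. These groups overlapped widely, with a log2FC of -0.01 (95% interval -0.37 to 0.35, adjusted p = 0.992).

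The change of Vipr1 between cKO and WT Tregs differed from that between CD25lo and CD25hi Tregs by -1.78 on the log2 scale (SE 0.29, adjusted p = 0.0062 from limma). It was the only one of the 10 members to pass this test of the difference, where 1.03% of all genes did. The call was lost without CD25lo replicate 2 (-1.63, adjusted p = 0.0558), with the sex term (-1.72, adjusted p = 0.101) and with the replicate number as a block (-1.75, adjusted p = 0.0603), within 7.2e-06 to 0.101 over 11 alternatives. For Pde3b the difference was -1.09 (SE 0.36, adjusted p = 0.162), and it passed without CD25hi replicate 2 (-1.47, adjusted p = 0.0209). That of Adora2a was 0.62 (SE 0.17, adjusted p = 0.0837), and it passed without cKO replicate 2 (0.70, adjusted p = 0.0378), with DESeq2 (adjusted p = 0.0188) and with the immediate early term (adjusted p = 0.0306). The Adcy7 changes differed by -0.25 (95% interval -0.50 to 0.002, adjusted p = 0.372).

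Ptger4 (chromosome 15, 5206661 to 5244187, minus strand), which encodes the prostaglandin E2 receptor EP4, was at 5877.6, 5371.8, 6348.0, 5866.2 and 6565.3 normalized counts in cKO and 6704.7, 6707.2, 5903.2 and 4560.0 in WT libraries. The cKO libraries fell within the range of the WT libraries, whose lowest value was WT replicate 4 (log2FC 0.02, 95% interval -0.20 to 0.25, adjusted p = 0.953 from limma). CD25lo libraries, at 3587.0 and 3811.0, lay below CD25hi libraries, at 5380.5, 4190.4 and 4060.1, but the log2FC of -0.29 (95% interval -0.59 to 0.02) did not pass the test (adjusted p = 0.416).

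Crem (chromosome 18, 3266048 to 3337748, minus strand) is itself a target of cAMP: its short ICER forms are induced by PKA signaling and repress cAMP-driven genes. Gene-level values do not separate these forms. Crem was at 840.1, 833.3, 823.4, 1294.3 and 1250.1 normalized counts in cKO libraries, against 984.0, 554.8, 817.3 and 323.7 in WT libraries. The groups overlapped, with the highest values in cKO replicates 4 and 5 and the lowest in WT replicate 4. The log2FC was 0.68 (SE 0.28, 95% interval 0.09 to 1.26, adjusted p = 0.227 from limma). In CD25lo libraries Crem was at 444.6 and 408.8, against 527.3, 270.9 and 560.6 in CD25hi libraries (log2FC -0.02, adjusted p = 1).

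These 3 libraries were also at the ends of their groups in immediate early genes, with levels of 13.40 and 13.56 in cKO replicates 4 and 5, the highest of the cKO libraries, and of 11.84 in WT replicate 4, the lowest of the WT libraries. With this level as a term, Crem passed between cKO and WT Tregs, at a log2FC of 0.70 (SE 0.19, adjusted p = 0.0319, within 0.0319 to 0.998 over 13 alternatives). Over cKO replicates 4 and 5 and WT replicates 1 to 3 alone, whose immediate early levels were alike, an alternative chosen after the data were seen, Adora2a remained called, whereas Adcy7 had a log2FC of 0.23 (adjusted p = 0.288) and Pde3b of 0.81 (adjusted p = 0.356).

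**Figure D4:**
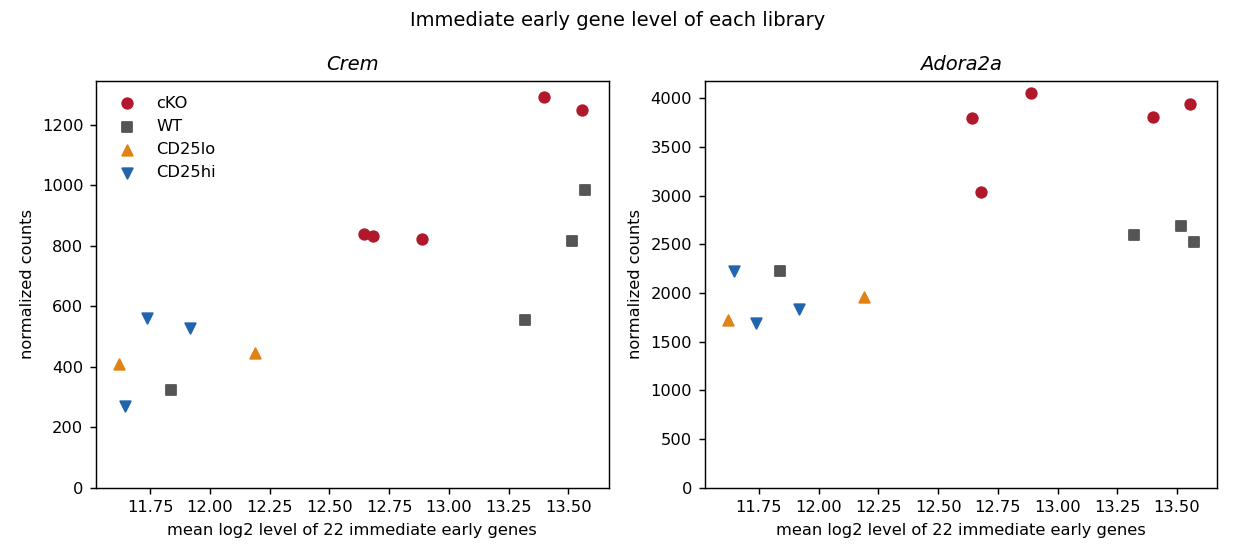
Normalized counts (vertical axes, from 0) of Crem on the left and Adora2a on the right in each of the 14 libraries, against the mean log2 level of 22 immediate early genes (horizontal axes). Symbols mark cKO, WT, CD25lo and CD25hi libraries. WT replicate 4 lies among the CD25-sorted libraries at 11.84. Adora2a is at 3038.4 or more in the cKO libraries, whose immediate early levels run from 12.64 to 13.56.

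Across the 14 libraries the members fell into differing patterns, given as a description. On log2 values Adcy7 and Pde3b ran together (Pearson's r = 0.83), as did Pde3b and Vipr1 (r = 0.78) and Adcy7 and Vipr1 (r = 0.75). Pde4b and Pde4d (r = 0.79), Pde4d and Crem (r = 0.77) and Adora2a and Pde4d (r = 0.76) formed other close pairs, and the lowest value was that of Pde3b and Pde4a (r = -0.50). These libraries share the group differences and the immediate early levels described above. Among genes with a mean of at least 1000 normalized counts, those most like Adcy7 were Man2a2 (r = 0.93) and Slc52a2 (r = 0.92), and those most like Pde3b were Slc20a1 and Tcf7 (r = 0.91 each). Itgb3 (r = 0.91) and Klhl24 (r = 0.90) were most like Vipr1, and Rab11fip1 (r = 0.96) and Fam129a (r = 0.94) most like Adora2a. For Ptger4 they were Rnf19b (r = 0.97) and Rgs16 (r = 0.94), for Crem Fem1c (r = 0.94) and Rgs3 (r = 0.92), for Pde4d Sla (r = 0.96) and Tox2 (r = 0.95), and for Pde4b Ythdc1 and Chd7 (r = 0.93 each). Pde7a and Pde4a had no neighbour above r = 0.81: Eif4enif1 (r = 0.79) and Fam98b (r = 0.78) were most like Pde7a, and Pithd1 (r = 0.81) and Ndufv3 (r = 0.80) most like Pde4a.

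The rest of the cAMP pathway was read from 8 lists of other genes, of whose 92 genes 73 were tested. The lists too were chosen with earlier results of these data known. Between cKO and WT Tregs 5 of the 73 were higher and 0 lower by limma, where 2.04% and 1.48% of all genes tested were. Of the 73, 14 had an unadjusted p under 0.05, beside 2619 of all 16241 genes tested. The median log2FC was -0.02. DESeq2, run with its default filtering in place of the filter on low values used for limma, called 7 higher and 2 lower of 81 of these genes. Over all 23665 genes it called 537 higher and 512 lower. Of 14 other Gs- and Gi-coupled receptors tested, 2 were higher: Gpr174, a Gs-coupled receptor for lysophosphatidylserine, and Gpr65, a proton-sensing Gs-coupled receptor. Gpr174 was at 6798.1, 6356.7, 5657.9, 5724.1 and 5496.2 normalized counts in cKO and 4301.5, 5044.1, 4389.5 and 3694.6 in WT libraries (log2FC 0.47, SE 0.09, adjusted p = 0.0044). Gpr65 was at 1751.2 to 2182.2 in cKO (median 1909.7) and 1111.7 to 1525.9 in WT libraries (log2FC 0.50, SE 0.10, adjusted p = 0.0093). For both genes all cKO libraries lay above all WT libraries, as for Adora2a and for 4.92% of all genes tested.

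Downstream of cAMP, Prkar2a, the RIIα regulatory subunit of PKA, was at 1296.0, 1158.8, 986.9, 1362.3 and 1222.9 normalized counts in cKO and 809.1, 416.1, 692.3 and 677.3 in WT libraries. It was 1 of the 11 genes of the PKA and EPAC list to pass, with a log2FC of 0.93 (SE 0.17, adjusted p = 0.0048 from limma). Crtc3, a coactivator of CREB, was also higher (log2FC 0.33, SE 0.08, adjusted p = 0.0255), and Dpp4, a surface peptidase that in humans anchors adenosine deaminase, by 0.24 (adjusted p = 0.0492). For Prkar2a, Crtc3 and Dpp4 too, all cKO libraries lay above all WT libraries. Gpr174, Gpr65 and Prkar2a remained called in all 9 fits that left out a bulk library (adjusted p up to 0.0312). Crtc3 lost its call without cKO replicates 3, 4 or 5 or WT replicate 4 (adjusted p = 0.0621, 0.0559, 0.0561 and 0.0506), and Dpp4 without any 1 library other than WT replicate 4 (adjusted p up to 0.141). With the sex term none of these 5 genes passed (adjusted p = 0.418 for Gpr174, 0.820 for Gpr65, 0.552 for Prkar2a, 0.760 for Crtc3 and 0.634 for Dpp4).

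The genes with the most normalized counts in each list, apart from those already named, were not called in either comparison. Gnas, the α subunit of Gs, was at 16587 ± 1264 normalized counts in cKO (SD, n = 5) and 16858 ± 696.7 in WT Tregs (SD, n = 4), and Gnai2, its inhibitory counterpart, at 23150.2 ± 1837 and 26031 ± 171.4 (log2FC -0.17, adjusted p = 0.131 from limma). The PKA subunits Prkar1a and Prkacb had log2FCs of 0.11 and 0.08, the anchoring protein Akap13 of -0.0008 and Ezr of -0.27 (adjusted p = 0.0628), and the coactivators Crebbp and Ep300 of -0.08 and -0.0040. Of the other cyclases, Adcy3 and Adcy6 had log2FCs of 0.35 (adjusted p = 0.101) and -0.16, and the phosphodiesterases Pde1b and Pde8a of -0.14 and -0.50. S1pr1, a Gi-coupled receptor, was at -0.19, and Nt5e (CD73), which forms adenosine, at -0.02.

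Between CD25lo and CD25hi Tregs 2 of the 73 passed upward and 1 downward, where 0.61% and 1.01% of all genes tested did. Hrh2, the Gs-coupled histamine receptor, was at 1229.3 and 1031.5 normalized counts in CD25lo and 680.2, 517.4 and 607.9 in CD25hi libraries (log2FC 0.91, SE 0.20, adjusted p = 0.0263 from limma). Rapgef4 (EPAC2), an exchange factor opened by cAMP, was at 1267.5 and 1456.4 in CD25lo and 774.0, 325.9 and 624.3 in CD25hi libraries (log2FC 1.33, SE 0.30, adjusted p = 0.0263). Entpd1 (CD39), the ectoenzyme that starts the conversion of ATP to adenosine, was lower, at 888.3 and 1121.3 in CD25lo and 1881.1, 1556.4 and 1369.5 in CD25hi libraries (log2FC -0.67, SE 0.16, adjusted p = 0.0408). In all 3 the groups did not overlap, as for 12.9% of all genes with CD25lo above and 11.6% with CD25lo below. The Hrh2 call was lost without CD25hi replicates 2 or 3 or CD25lo replicates 1 or 2 (adjusted p up to 0.166), that of Rapgef4 without CD25hi replicate 2 or CD25lo replicates 1 or 2 (adjusted p up to 0.219), and that of Entpd1 without any 1 of these 5 libraries except CD25hi replicate 3 (adjusted p up to 0.248).

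**Figure D5:**
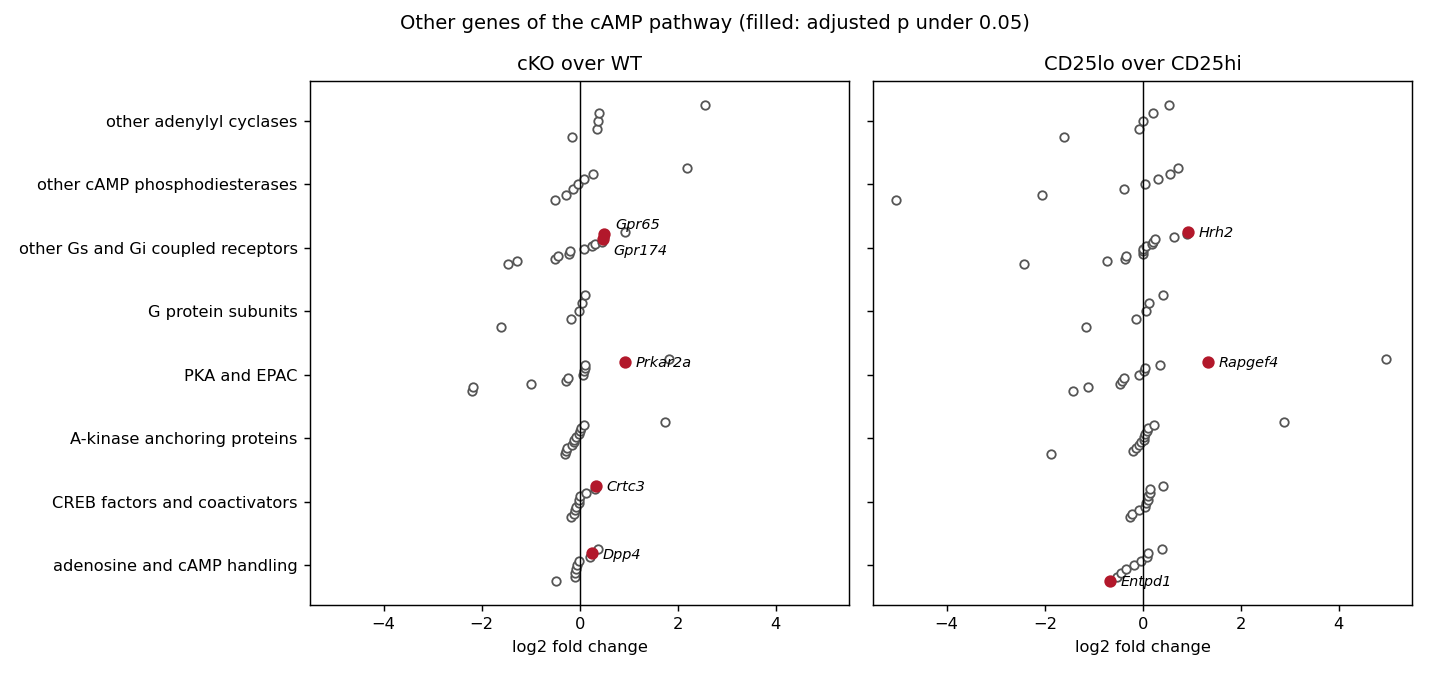
Log2FCs (horizontal axes) of the 73 other cAMP pathway genes tested, 1 circle per gene, in 8 lists (vertical axis), for cKO over WT Tregs on the left and CD25lo over CD25hi Tregs on the right. Filled, named points passed an adjusted p of 0.05 from limma: 5 higher on the left, and 2 higher and 1 lower on the right; the widest open circles are genes with few reads.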

How the data were processed

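Tregs were sorted from 14 samples, 5 cKO, 4 WT, 2 CD25lo and 3 CD25hi, grouped by their titles. The authors aligned single-end 50 bp reads with STAR 2.7.2b to GRCm38 and deposited 1 signal per gene and library, in which reads were scaled by size factors (DESeq2 1.24.0) and kept to 0.1. Stabilized log2 values, fold changes and p-values of the authors' own comparisons stand in the same table and were not used. Of 55536 listed genes, 48363 had values.

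The deposited signal was tested with limma 3.58.1 (R 4.3.3, trend, 4 group means over 14 libraries, no covariate) on log2(normalized count + 1), for genes that reached 10 normalized counts in 2 or more libraries, with Benjamini-Hochberg adjustment and calls at an adjusted p under 0.05. Multiplied back, 100.0% of values were whole reads within 0.055 normalized counts. In cKO replicate 4 and CD25lo replicate 2 a read was worth close to 1 normalized count, where this check says little, so reads count as recovered for the other 12 libraries. The reads of all 14 served edgeR 4.0.16, DESeq2 1.42.0 and limma-voom as alternatives. Further alternatives were no filter, a filter of 100, pseudocounts of 0.5 and 5, a fit of the compared groups alone, the replicate number as a block, a term for sex or for the immediate early level, each library left out, and, chosen after seeing the data, the bulk libraries whose immediate early levels were alike. The sex term sets cKO Tregs against WT replicate 3, the sole female of its group. With 2 CD25lo libraries, and 1 when the other is left out, a test rests on the spread within all groups. Exon lengths came from GENCODE M21, and tables were handled with python 3.11.15 (pandas 2.3.3, numpy 2.4.6).

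The members and lists were chosen with earlier results of these data known. Named are the members, other pathway genes called in either comparison or among the 2 most abundant of their list, the 2 genes most like each member, and Foxp3, Xist and the marker genes where a result turns on them, and 1 listed marker is not reported here.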

Additional observations from a re-analysis of the deposited data

Results flagged for a closer look

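Adora2a in cKO replicate 2, at 3038.4 normalized counts, lay apart from the other 4 cKO libraries, the nearest of which was at 3796.4, by a gap of 0.744 of the group's range, above Dixon's critical value for 5 libraries. It was the only such value among 20 groups of libraries checked, where chance gives about 1. These were the cKO and the WT libraries of each member, and the CD25-sorted libraries were not checked. Without cKO replicate 2 the log2 fold change of Adora2a between cKO and WT Tregs was 0.64 (adjusted p = 0.0011 from limma).

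Vipr1 changed differently in the 2 comparisons, by -1.78 on the log2 scale (adjusted p = 0.0062 from limma), with a log2 fold change of -0.01 in cKO over WT and of 1.77 in CD25lo over CD25hi Tregs.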

How the results depend on the processing

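For members, 25 of 640 values under an alternative changed sign, and none of these was called. Vipr1 (cKO over WT) was at 0.0012 with limma-voom, 0.0286 with the replicate block, 0.0528 with the sex term and 0.0604 over the bulk libraries whose immediate early levels were alike. Ptger4 (cKO over WT) was at -0.0105 with the block and -0.0505 over the like libraries, Pde4b (cKO over WT) at -0.0795 with the sex term and Crem (CD25lo over CD25hi) at 0.0606 with the block. With 1 library left out at a time, Vipr1 ranged from -0.175 to 0.0977 and Ptger4 from -0.101 to 0.0843 (cKO over WT), Adora2a from -0.149 to 0.0581 and Crem from -0.350 to 0.173 (CD25lo over CD25hi), and the difference of the 2 changes from -0.0648 to 0.480 for Pde4a, -0.183 to 0.0182 for Pde4d and -0.0631 to 0.142 for Pde7a. The causes were not tested.

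Counts of called genes are given for cKO over WT (572 in the main fit), CD25lo over CD25hi (263) and the difference (168). DESeq2 was run on all 23665 genes with a read and 81 pathway genes in place of 16241 and 73. Its default filtering was on, so not every gene need have an adjusted p, and test and filter changed together. DESeq2 called 1049, 806 and 703 genes, 9 and 7 of the other pathway genes, and 2 members in the difference. Without a filter, 83 genes passed in the difference, 1 member in cKO Tregs and 1 pathway gene in CD25lo Tregs, and with a filter of 100, 256 genes in the difference. With only the groups compared, 160 genes and 0 pathway genes passed between the CD25-sorted groups with limma. Of the 68 pathway genes in that fit 11 had an unadjusted p under 0.05, as 1547 of its 13988 genes had. With the sex term, 22 genes, 0 members (2 unadjusted) and 0 pathway genes (8 unadjusted) passed in cKO Tregs. In the difference 21 genes and 0 members (4 unadjusted) passed with this term. Of all 16241 genes, 1053 in cKO Tregs and 1385 in the difference had an unadjusted p under 0.05 there. With the immediate early term, 442 genes passed between the CD25-sorted groups, and 399 genes and 2 members in the difference. Over the like libraries, 111 genes, 1 member and 0 pathway genes (10 unadjusted) passed, where 1376 of 15693 genes had an unadjusted p under 0.05. With 1 library left out, genes ranged from 349 to 575, 91 to 266 and 65 to 218, members from 1 to 3, 2 to 3 and 0 to 2, and pathway genes from 3 to 6 and 0 to 2.

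With the replicate number as a block, 290, 105 and 25 genes passed, and 3 and 0 pathway genes (10 unadjusted in CD25lo Tregs). In the difference 0 members passed (4 unadjusted). Of all 16241 genes, 1844 between the CD25-sorted groups and 1732 in the difference had an unadjusted p under 0.05. Pde3b lost its call in cKO Tregs (0.88, adjusted p = 0.0629 from limma). For genes with a mean of at least 1000 normalized counts, deviations from the group mean were correlated between same-numbered libraries. Between cKO and WT Tregs these correlations were -0.20, -0.27, -0.08 and -0.41, and such libraries were treated as sharing only a number. With 2 CD25lo libraries, deviations from their mean mirror each other, so whether the numbers pair the CD25-sorted libraries could not be checked. Adcy7 lost its cKO call without a filter (adjusted p = 0.0575) and with only the groups compared (0.0556), and Pde3b without a filter (0.0757).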
